A study of Mus musculus with 6 samples.

Results

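Blood and lymphatic endothelial genes were followed in the mouse uterus as a group of 38 genes, out of 18193 genes tested on 6 Affymetrix arrays. The members were taken by exact gene symbol from probe sets that carry 1 symbol, each gene was read by its brightest probe set, and all 38 were measured. Uteri were from female mice at 4 weeks of age, 3 arrays from control and 3 from mutant uteri. In the mutant, Pgr cre/+ Ctnnb1 f(ex3)/+, a Cre recombinase made from 1 copy of the progesterone receptor gene Pgr removes exon 3 of 1 copy of Ctnnb1 in cells that express Pgr, so that a form of β-catenin that resists degradation is made there. The sample labels call the control mice wild type, while the methods give them as Pgr cre/+ and as Ctnnb1 f(ex3)/+, so control mice may themselves carry either allele alone. The sources used here do not say whether endothelial cells of these uteri carried the deletion. By the methods, uterine RNA of 3 mice of a genotype was combined, so the 3 arrays of a group may not be separate animals, and p-values then reflect array-to-array spread alone, possibly technical. The deposited values are linear intensities, which were put on the log2 scale. A change below is the mutant mean minus the control mean on that scale, a log2 fold change, and it was called when limma's adjusted p over all genes was under 0.05.

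Endothelial cells line blood and lymphatic vessels. Vascular endothelial growth factors (VEGF) act on the receptor kinases Flt1, Kdr and Flt4, and drive sprouting of blood vessels through Kdr and of lymphatic vessels through Flt4. Angiopoietin 1, made mostly by perivascular and stromal cells, activates the receptor Tek (Tie2) and keeps vessels quiet and tight, while angiopoietin 2, made by endothelium itself, can act as its antagonist. In the uterus, vessels grow and regress with each reproductive cycle and after implantation, and leukocytes enter the endometrium through venules that display selectins and the adhesion molecules Icam1 and Vcam1.

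The array values set the frame for what could be seen. On each array 62.3 to 62.6% of probe sets had an intensity under 16 (4 on the log2 scale), where a change may be understated. Sele, Ackr1 and Gja5 lay below it on all 6 arrays. The other 35 members reached it on at least 1 array, among them the defining endothelial markers Pecam1, Cdh5, Emcn, Cldn5 and Kdr on every array. The change of Ctnnb1 was 0.33 (standard error, SE, 0.09, limma adjusted p = 0.0499), which checks nothing about the deletion unless its probes lie in exon 3. The number of arrays limits the precision.

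The 38 endothelial members as a group lay near the rest of the genome, while a few members stood out. Angpt1, Tek, Selp and Tal1 fell and Flt1 rose in the mutant uterus, and the other 33 members were not called. The 4 lower members are 10.5% of the 38, against 6.37% of all genes called lower, and the 1 higher member is 2.63%, against 5.61% of all genes called higher. The median change of the members was -0.07, beside -0.01 over all genes tested. All 3 mutant arrays lay above all 3 control arrays for 7 members (18.4%, against 14.9% of all genes) and below them for 9 members (23.7%, against 17.4% of all genes). Thus these shares were close to those of all genes, and the members' own values carry the description that follows. Of the 38 members, 16 had an unadjusted p under 0.05 from limma. The share of all genes at that mark was not counted, so counts at that mark below have no such share beside them. Many genes reach such a mark: at an unadjusted p under 0.05 from Student's t-test, 1925 of the 18193 genes were higher and 2226 lower. With that t-test 4 members were higher and 5 lower. None of the 5 calls held when intensities under 16 were set to 16. With that floor the changes of Flt1 and Tek stayed at 0.49 and -0.85, as all their values lay above it. The calls over all genes fell to 285 higher and 247 lower, so the loss does not mark Flt1 and Tek as dim. Nor did any of the 5 calls hold with Student's t-test after Benjamini-Hochberg adjustment. The methods give that t-test as a general test for a pair of groups, without this adjustment, and refer to earlier work for the array analysis. For 30 of the 38 members the 95% interval of the change, which covers only the spread between arrays, lay between -1 and 1. In whole-uterus RNA, fewer endothelial cells and less RNA per endothelial cell cannot be told apart.

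**Figure D1:**
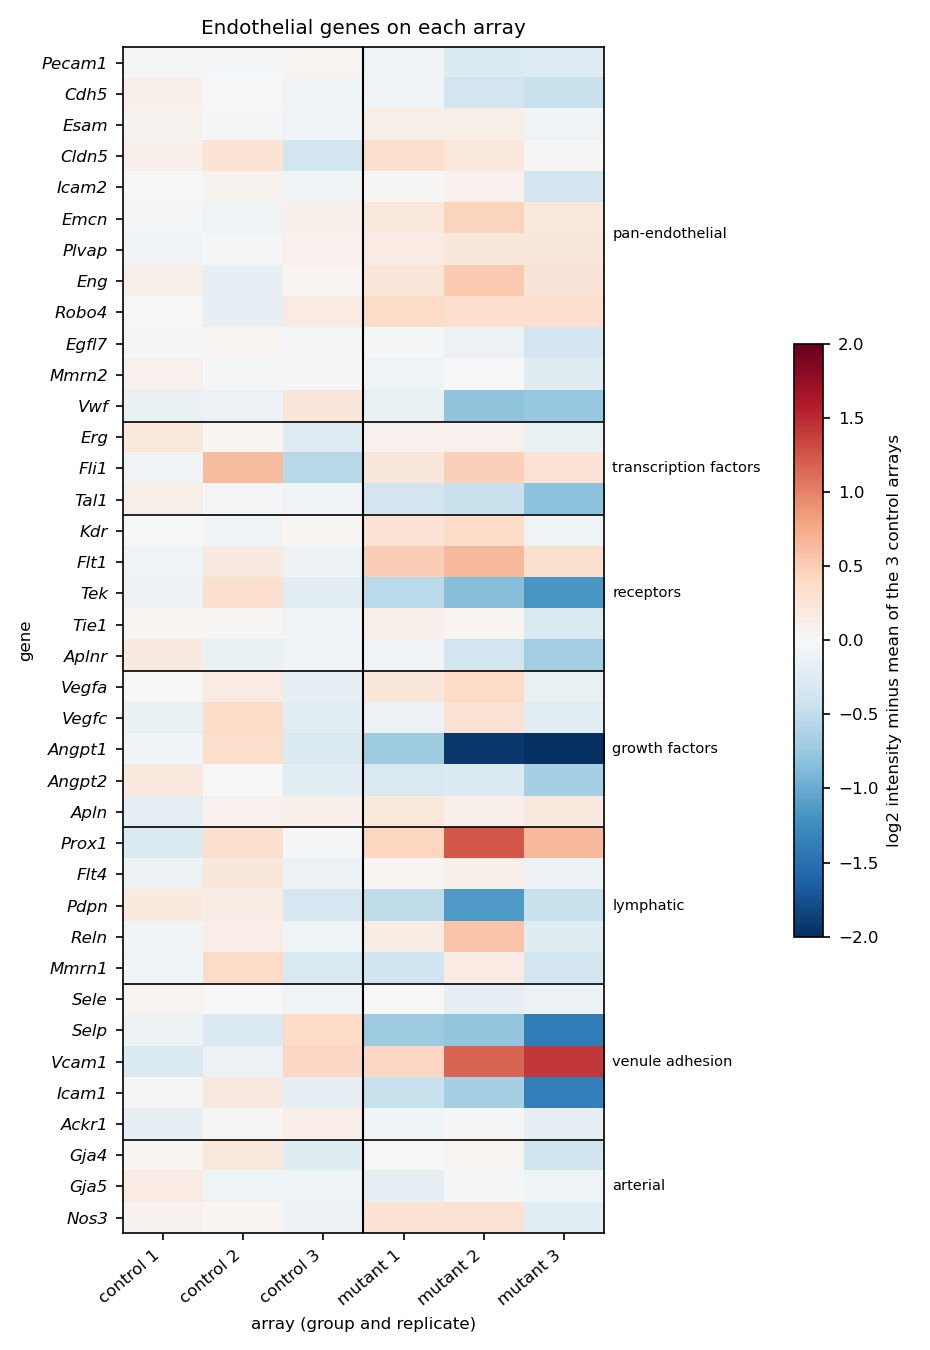
Each cell is the log2 intensity of 1 endothelial gene (y axis, grouped by role) on 1 array (x axis), minus the mean of the 3 control arrays for that gene, with red above and blue below that mean and the colours ending at -2 and 2. Angpt1 is the deepest blue, most so on mutant replicates 2 and 3, while most pan-endothelial genes stay pale on all 6 arrays.

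**Figure D2:**
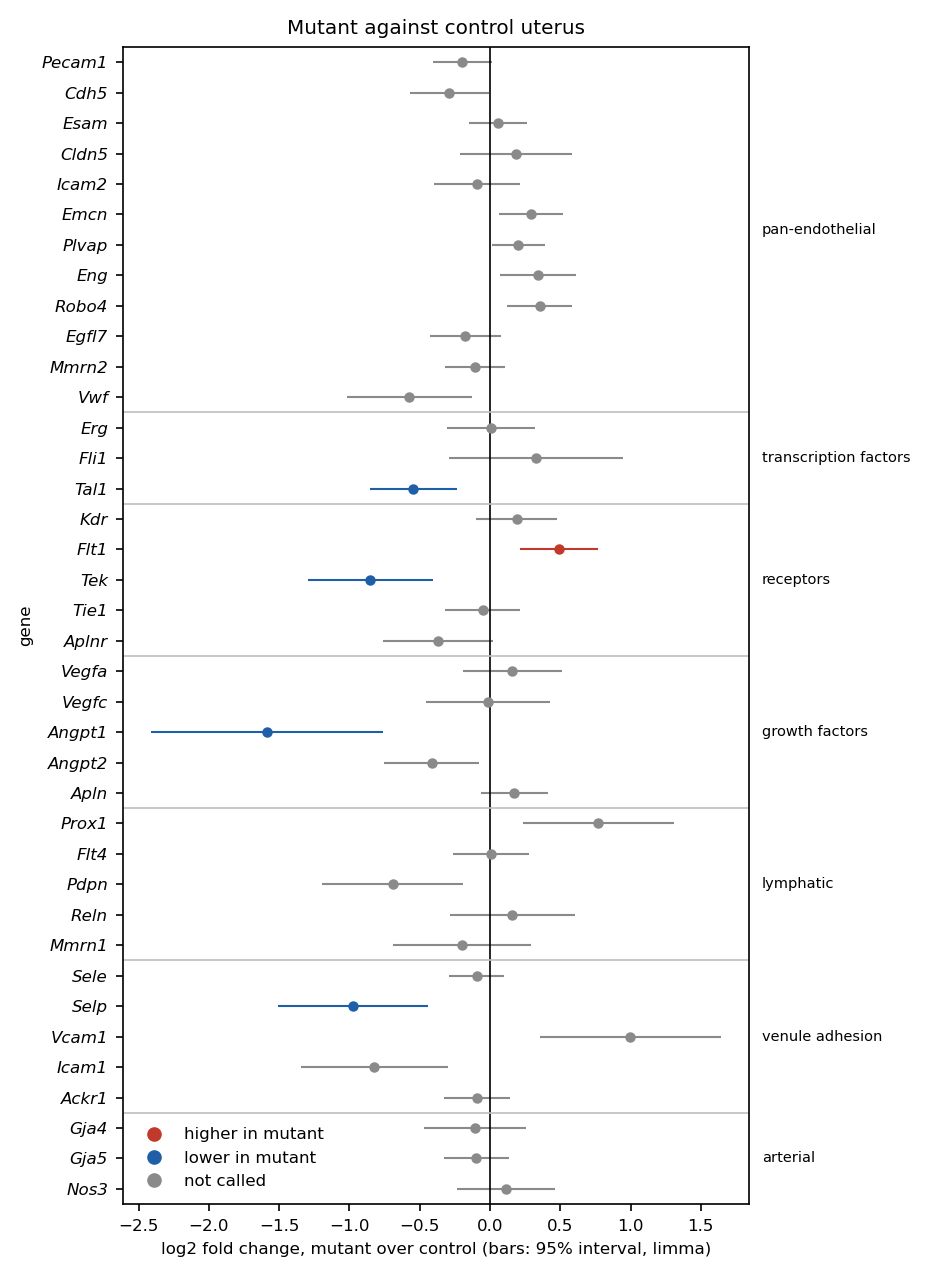
Each point is the change, mutant minus control in log2 units (x axis), of 1 endothelial gene (y axis), with its 95% interval from limma as a bar. Red marks Flt1, the 1 gene called higher, blue marks Tal1, Tek, Angpt1 and Selp, called lower, and grey marks the 33 genes not called.

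Angpt1, the ligand that activates Tek, had the lowest log2 fold change of the 38 members. Control replicates 1 to 3 read 5.62, 6.02 and 5.38 in log2 intensity, and mutant replicates 1 to 3 read 4.96, 3.74 and 3.57. The groups did not overlap, and mutant replicate 1 lay between the controls and the other mutant arrays. Angpt1 fell by 1.59 log2 units (SE 0.35, limma adjusted p = 0.0281), to 0.333 of the control intensity. Only mutant replicate 1 could be left out with the call kept, and the other 5 fits gave changes of -1.73 to -1.32 with adjusted p of 0.0543 to 0.107. A second, dimmer Angpt1 probe set, below an intensity of 16, had log2 intensities of 2.62 to 2.72 in the controls and 2.27 to 2.44 in the mutants, which did not overlap, and a change of -0.31 (adjusted p = 0.0663 over all probe sets). Angpt2, the context-dependent antagonist, had log2 intensities of 4.74, 4.54 and 4.34 in the controls and 4.24, 4.27 and 3.87 in the mutants. All mutant arrays lay below all controls, with a change of -0.42 that was not called (95% interval -0.75 to -0.08, adjusted p = 0.11).

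Tek, the receptor of both angiopoietins, fell as well. Control replicates 1 to 3 read 6.41, 6.85 and 6.30 in log2 intensity and mutant replicates 1 to 3 read 5.97, 5.67 and 5.36, so the groups did not overlap. Tek fell by 0.85 log2 units (SE 0.19, limma adjusted p = 0.0284), to 0.554 of the control intensity. Leaving out either of control replicates 1 and 2, or either of mutant replicates 2 and 3, ended the call, with changes of -0.90 to -0.69 and p adjusted to 0.068 to 0.0929. Tie1, an orphan receptor that pairs with Tek, had log2 intensities of 4.11 to 4.20 in the controls and 4.26, 4.20 and 3.88 in the mutants, so the groups overlapped. The Tie1 change was -0.05 (95% interval -0.32 to 0.21, adjusted p = 0.824).

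The VEGF receptors and ligands showed 1 call. Flt1, the receptor that binds Vegfa and limits what reaches Kdr, had log2 intensities of 5.26, 5.52 and 5.23 in the controls and 5.82, 5.99 and 5.66 in the mutants. All 3 mutant arrays lay above all 3 controls, and Flt1 rose by 0.49 log2 units (SE 0.12, limma adjusted p = 0.0383), or 1.40-fold. Of its other 3 probe sets, 1 was called higher (0.70, adjusted p = 0.00831 over all probe sets), 1 had a change of 0.31, and the dimmest, below an intensity of 16, had a change of -0.19. Leaving out any of control replicates 1 and 3 and mutant replicates 1 and 2 ended the Flt1 call (0.41 to 0.49, with p adjusted to 0.0804 to 0.138), and centring the arrays on their medians ended it narrowly, at a change of 0.48. Kdr, the main signaling receptor of Vegfa, had log2 intensities of 6.75 to 6.84 in the controls and 7.07, 7.17 and 6.72 in the mutants, and mutant replicate 3 fell below the controls. The change of Kdr was 0.19 (95% interval -0.10 to 0.48, adjusted p = 0.393). Whether Flt1 and Kdr differ in their change was not tested. Vegfa had log2 intensities of 6.71 to 7.02 in the controls and 6.72 to 7.26 in the mutants, with a change of 0.16 (95% interval -0.19 to 0.51). The ligand Vegfc and its receptor Flt4, which direct lymphatic growth, had changes of -0.02 and 0.01, with 95% intervals of -0.46 to 0.43 and -0.26 to 0.28. In the apelin system, which acts in sprouting vessels, the receptor Aplnr had log2 intensities of 9.36 to 9.68 in the controls and 9.45, 9.13 and 8.80 in the mutants, with a change of -0.37 (95% interval -0.76 to 0.02). Its ligand Apln had a change of 0.17 (95% interval -0.07 to 0.41). Neither was called.

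**Figure D3:**
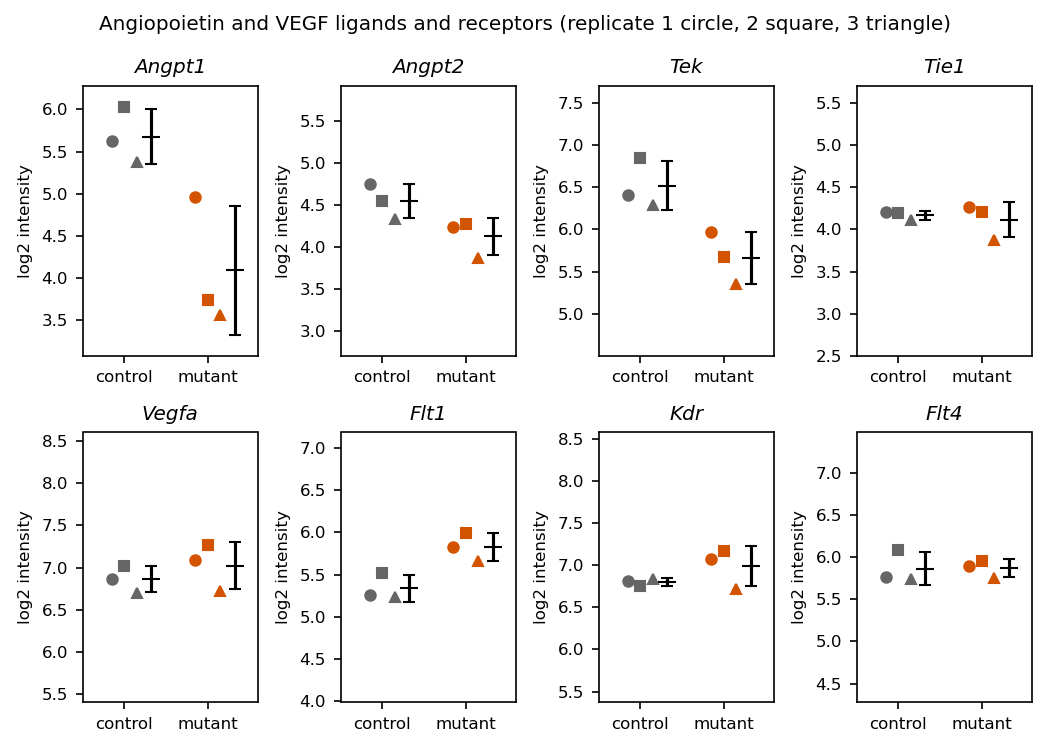
Each panel plots the log2 intensity (y axis, all panels spanning the same number of log2 units) of 1 ligand or receptor gene for the 3 control (grey) and 3 mutant (orange) arrays, with the mean and SD of each group as black bars. The groups separate downward for Angpt1, Angpt2 and Tek and upward for Flt1, and they overlap for Tie1, Vegfa, Kdr and Flt4.

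The promoter windows of 3 called members are printed here because these genes moved and have 1 annotated start each: Tek at chr4:94739039-94739338 on the plus strand, Selp at chr1:164115014-164115313 on the plus strand and Flt1 at chr5:147725962-147726261 on the minus strand. The RefSeq table of GRCm38.p6 gives 250 bases before and 50 after each start, and 25 of the 38 members, with 32 windows, were matched by symbol (Angpt1 was not matched, and Tal1 has 2 windows, not shown). Capitals mark the letters CTTTGAT or CTTTGTT, words bound by TCF/LEF factors, the DNA-binding partners of β-catenin, and GGAAG, a core of sites of ETS factors such as Erg and Fli1. Both strands were searched, so the reverse complement may stand in the text.
Tek: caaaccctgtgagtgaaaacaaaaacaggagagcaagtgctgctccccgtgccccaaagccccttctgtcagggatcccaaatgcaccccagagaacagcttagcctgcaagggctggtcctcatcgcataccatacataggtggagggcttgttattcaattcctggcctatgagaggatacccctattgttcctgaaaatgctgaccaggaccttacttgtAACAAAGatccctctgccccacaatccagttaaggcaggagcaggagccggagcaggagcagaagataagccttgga
Selp: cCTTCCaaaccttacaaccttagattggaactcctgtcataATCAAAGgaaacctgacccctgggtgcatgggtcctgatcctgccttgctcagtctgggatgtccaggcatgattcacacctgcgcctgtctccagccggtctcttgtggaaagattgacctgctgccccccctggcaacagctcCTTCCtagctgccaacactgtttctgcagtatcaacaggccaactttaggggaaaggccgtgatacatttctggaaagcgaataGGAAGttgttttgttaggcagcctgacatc
Flt1: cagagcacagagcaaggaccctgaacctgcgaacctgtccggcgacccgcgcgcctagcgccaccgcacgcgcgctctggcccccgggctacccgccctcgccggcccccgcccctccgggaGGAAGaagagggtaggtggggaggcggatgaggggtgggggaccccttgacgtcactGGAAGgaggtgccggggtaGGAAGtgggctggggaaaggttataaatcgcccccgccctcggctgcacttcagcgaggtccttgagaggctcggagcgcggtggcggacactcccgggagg
Tek holds CTTTGTT on the reverse strand, with its leftmost printed base at -27 from the start, and Selp holds CTTTGAT on the reverse strand, with that base at -209. Selp and Flt1 each hold GGAAG at 3 places, and Tek does not hold it. Flt1, called higher, holds no TCF/LEF word, and neither do the 2 windows of Tal1, called lower. A TCF/LEF word stood in 5 of the 32 member windows (15.6%) and in 9.33% of all 32851 windows, and GGAAG in 25 (78.1%) and 71.4%. These matches describe letters only and say nothing of binding.

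The genes grouped here as pan-endothelial did not move as a block. Some of them, such as Emcn, Plvap and Vwf, mark part of the endothelium or other cells as well. Of 12 junction, surface and matrix genes none was called at an adjusted p under 0.05 from limma, while 6 of the 12 had an unadjusted p under 0.05, and their median change was -0.02. The mean log2 intensity of the 12 was 6.49, 6.45 and 6.48 in control replicates 1 to 3 and 6.57, 6.51 and 6.35 in mutant replicates 1 to 3, so the controls lay inside the range of the mutants. Pecam1, the platelet endothelial adhesion molecule, had log2 intensities of 4.68, 4.68 and 4.76 in the controls and 4.65, 4.43 and 4.44 in the mutants. Cdh5, the cadherin of endothelial junctions, had 7.34, 7.23 and 7.15 in the controls and 7.19, 6.87 and 6.79 in the mutants. Their changes were -0.20 (95% interval -0.41 to 0.01) and -0.29 (95% interval -0.57 to -0.01), and Cdh5 was called without mutant replicate 1 (-0.41, adjusted p = 0.0461). The tight junction genes Esam and Cldn5 had changes of 0.06 and 0.19, and Icam2, Egfl7 and Mmrn2 had changes between -0.18 and -0.09, all with overlapping groups. The dimmer Mmrn2 probe sets had lower changes of -0.16, -0.29 and -0.39, against -0.11 from the brightest, and none of them was called.

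Robo4, a receptor that stabilizes vessels, had log2 intensities of 4.71, 4.53 and 4.86 in the controls and 5.08, 5.04 and 5.03 in the mutants, with a change of 0.35 (95% interval 0.12 to 0.58, adjusted p = 0.062). It was called without control replicate 3 (0.43, adjusted p = 0.0457). Eng, a TGF-β coreceptor of endothelium, had a change of 0.34 (95% interval 0.07 to 0.61). Its second probe set, which read 5.88 to 6.09 on the controls and 6.43 or more on the mutants, was called higher (0.67, adjusted p = 0.0331 over all probe sets). Emcn, a sialomucin of capillaries and veins, had a change of 0.29 (95% interval 0.06 to 0.52), and Plvap, which forms the diaphragms of fenestrae, one of 0.20 (95% interval 0.02 to 0.39). For each of these 4 genes all mutant arrays lay above all controls, and none was called with the brightest probe set.

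Vwf, the clotting factor stored with Selp in the granules of endothelium and platelets, had log2 intensities of 4.81, 4.82 and 5.18 in the controls and 4.79, 4.12 and 4.17 in the mutants. Mutant replicate 1 lay just under the lowest control, and the other mutant arrays lay well below. The Vwf change of -0.57 was not called (95% interval -1.02 to -0.13, adjusted p = 0.101), but it was called without mutant replicate 1 (-0.79, adjusted p = 0.0146).

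Among endothelial transcription factors, Tal1, which is needed to form blood and endothelium, fell by 0.55 log2 units (SE 0.13, limma adjusted p = 0.0376). Its log2 intensities were 4.62, 4.46 and 4.43 in the controls and 4.14, 4.05 and 3.67 in the mutants, near the dim end. The Tal1 call held only when mutant replicate 1 was the array left out (in the other 5 fits -0.60 to -0.41, adjusted p of 0.062 to 0.137). The ETS factor Erg, a driver of endothelial identity, had log2 intensities of 5.46, 5.29 and 4.99 in the controls and 5.33, 5.33 and 5.10 in the mutants, with a change of 0.01 (95% interval -0.31 to 0.32). Fli1, a related ETS factor that leukocytes also express, had 5.34, 6.04 and 4.85 in the controls and 5.63, 5.89 and 5.69 in the mutants, and the spread of the controls covered the mutants. Its change of 0.33 was not called (95% interval -0.29 to 0.95), while its dimmer probe set, which read 3.26 to 3.61 on the controls and 3.94 to 4.49 on the mutants, was called higher (0.83, adjusted p = 0.0156 over all probe sets).

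Lymphatic genes held no call at an adjusted p under 0.05 from limma, and 2 of the 5 had an unadjusted p under 0.05, in opposite directions. Prox1, the factor that sets lymphatic identity, had log2 intensities of 3.46, 4.06 and 3.73 in the controls and 4.17, 4.995 and 4.40 in the mutants. Every mutant array lay above every control, with a change of 0.77 (95% interval 0.24 to 1.31, adjusted p = 0.0737), and it was called without mutant replicate 1 (0.94, adjusted p = 0.0469). A second Prox1 probe set had a change of 0.63 (adjusted p = 0.0712 over all probe sets), and the dimmest one of -0.07. Pdpn, podoplanin, a glycoprotein of lymphatic endothelium that mesothelium and fibroblasts also make, had log2 intensities of 7.22, 7.17 and 6.69 in the controls and 6.52, 5.89 and 6.59 in the mutants, all below the controls. The Pdpn change was -0.69 (95% interval -1.19 to -0.19, adjusted p = 0.0819). Reln, a secreted matrix protein of lymphatic endothelium, and Mmrn1, a multimerin of lymphatic endothelium and platelets, had changes of 0.16 and -0.20, with overlapping groups. Of 9 other lymphatic genes measured none was called (3 of them had an unadjusted p under 0.05), with a median change of -0.06. The 2 with the smallest p were Ccbe1, which helps activate Vegfc (-0.54, adjusted p = 0.0512), and Adamts3, its partner protease (-0.39, adjusted p = 0.0755). The other gene with an unadjusted p under 0.05, named after its values were seen, was Lyve1, the hyaluronan receptor of lymphatic endothelium and some macrophages, with a change of 0.45 (adjusted p = 0.145) and overlapping groups. Among the 9 genes, 3 lay below an intensity of 16 on all arrays, and Adamts3 was 1 of them.

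Of the 5 adhesion and chemokine-binding genes of venules, Selp was called, and it was lower. Selp, P-selectin, which starts leukocyte rolling, read 4.49, 4.29 and 4.99 in log2 intensity on the controls and 3.86, 3.79 and 3.18 on the mutants, the latter all below the dim mark of 4. Selp fell by 0.98 log2 units (SE 0.23, limma adjusted p = 0.0333), to 0.508 of the control intensity. Of its other 2 probe sets, both dimmer, 1 was called lower (-0.62, adjusted p = 0.0241 over all probe sets) and 1 had a change of -0.58 (adjusted p = 0.119). Leaving out any of control replicates 1 and 3 and mutant replicates 2 and 3 ended the Selp call (-1.07 to -0.76, with p adjusted to 0.0694 to 0.0902).

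Icam1, the ligand of leukocyte integrins, had log2 intensities of 5.40, 5.61 and 5.26 in the controls and 4.97, 4.76 and 4.06 in the mutants. Vcam1, which binds integrin α4 and is also made by stromal cells, had 3.23, 3.40 and 3.93 in the controls and 3.93, 4.69 and 4.94 in the mutants. Neither gene overlapped between groups, although the highest Vcam1 control and mutant replicate 1 were almost level. The changes were -0.82 for Icam1 (95% interval -1.35 to -0.30, adjusted p = 0.0567) and 1.00 for Vcam1 (95% interval 0.35 to 1.64, adjusted p = 0.0584). Both were called without mutant replicate 1, at -1.01 (adjusted p = 0.0302) for Icam1 and 1.29 (adjusted p = 0.012) for Vcam1. The other 2 Vcam1 probe sets, both below an intensity of 16, had changes of 0.13 and 0.22. Sele, E-selectin, and Ackr1, the chemokine-binding receptor of venules, lay below an intensity of 16 on all arrays, with changes of -0.10 and -0.09.

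Arterial members did not separate the groups. Gja4 and Gja5, connexins of arterial endothelium, had changes of -0.11 (95% interval -0.47 to 0.25) and -0.10 (95% interval -0.33 to 0.13), the second of them below an intensity of 16 throughout. Nos3, the endothelial nitric oxide synthase, had log2 intensities of 4.35 to 4.52 in the controls and 4.73, 4.75 and 4.23 in the mutants, and a change of 0.11 (95% interval -0.23 to 0.46).

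**Figure D4:**
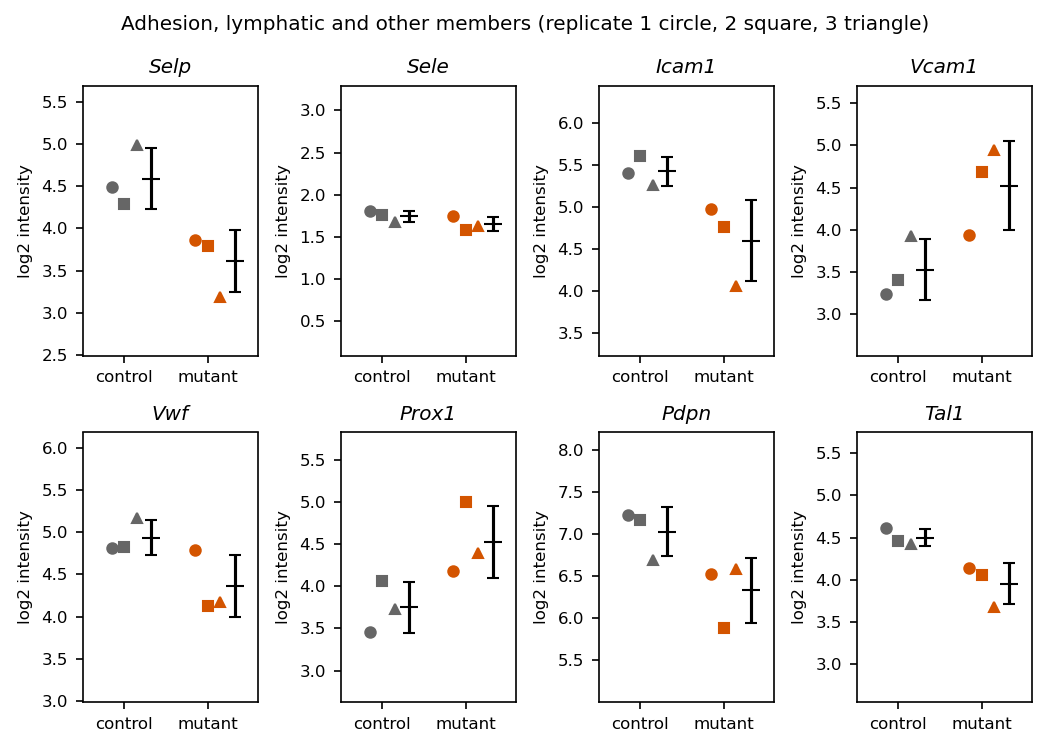
Each panel plots the log2 intensity (y axis, all panels spanning the same number of log2 units) of 1 gene for the 3 control (grey) and 3 mutant (orange) arrays, with the mean and SD of each group as black bars. Selp, Icam1, Vwf, Pdpn and Tal1 lie lower and Vcam1 and Prox1 higher on all mutant arrays, and Sele overlaps, at log2 intensities of 1.58 to 1.80.

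The arrays of the mutant group differed among themselves. Mutant replicate 1 was the mutant array nearest to the control mean for 4 of the 5 called members (Angpt1, Tek, Selp and Tal1). The share of all genes for which this held was not counted. Over all probe sets with 1 symbol, mutant replicate 1 was also the mutant array most like the controls. Its correlations with them were 0.986 to 0.989, against 0.978 to 0.983 for mutant replicates 2 and 3. Mutant replicate 3 was the lowest of the 6 arrays for 18 of the 38 members (47.4%), while it was the lowest for 17.1% of all genes, and the members are not independent of one another. The median of the members, each set against its control mean, was 0.02, 0.08 and -0.23 on mutant replicates 1 to 3. Without mutant replicate 3 the median change of the members was 0.06, and 1 member was higher and none lower, while over all genes 731 were higher and 762 lower in that fit, against 1021 and 1159 with all 6 arrays. Without control replicate 2 and mutant replicate 1 together, an alternative chosen with earlier results of these data known, 2 members were higher and 4 lower (754 and 771 over all genes).

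Probe sets of 1 gene did not always tell the same story. Of the 38 members, 18 had more than 1 probe set. For Eng and Fli1 only a probe set other than the brightest was called, and for Flt1 and Selp a second probe set was called in the direction of the first. Near the floor of the arrays, the second probe sets of Angpt1 and Vcam1 had changes of -0.31 and 0.13, against -1.59 and 1.00 from the brightest.

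**Figure D5:**
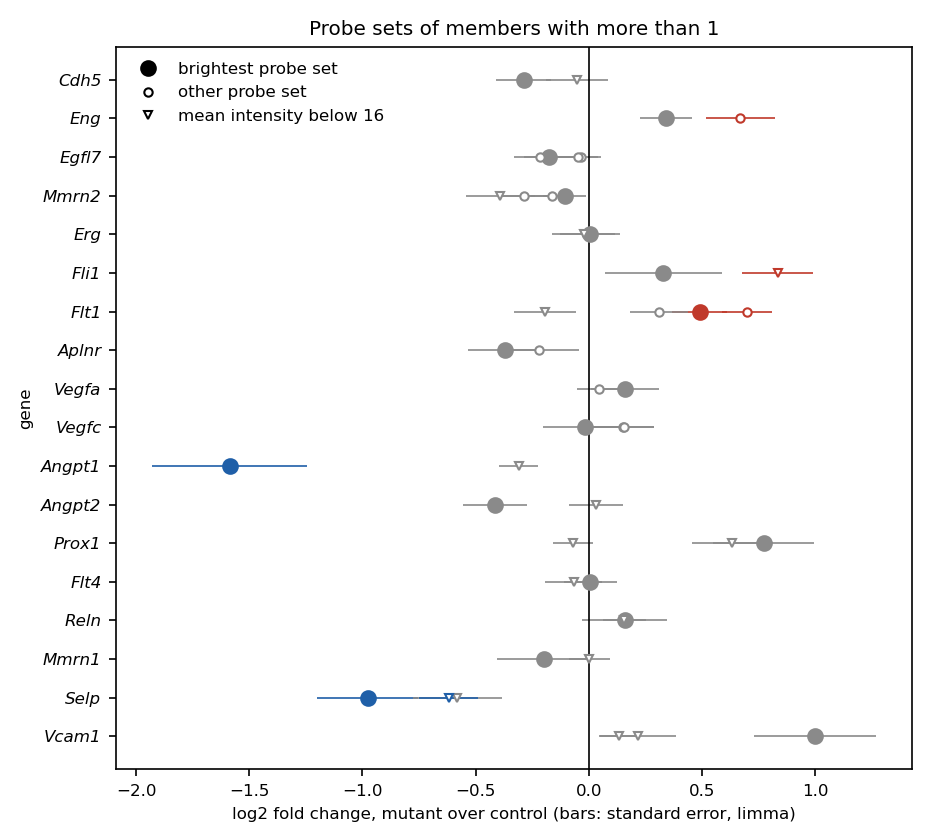
Each point is the change, mutant minus control in log2 units (x axis, with limma's standard error) of 1 probe set of the 18 members with more than 1 (y axis). Large filled points are the brightest probe set, small open points the others, triangles have a mean intensity below 16, and red or blue marks probe sets called higher or lower when all probe sets were adjusted together, which include the dimmer sets of Eng and Fli1.

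Other genes known from endothelium divided in the same uteri. Of 38 such genes measured, 6 were higher, 4 lower and 28 not called at an adjusted p under 0.05 from limma, with a median change of 0.03. Both shares were larger than those of all genes (5.61% higher and 6.37% lower), in a list chosen with earlier results known. Rgcc, a cell cycle regulator named for its response to complement, rose by 2.63 (SE 0.12), Nostrin, which binds Nos3 and moves it inside the cell, by 1.49 (SE 0.26), and Jcad, a protein of endothelial junctions, by 1.44 (SE 0.16). The control mean of Nostrin, 3.22 in log2 intensity, lay below the dim mark of 4. Clec14a, a lectin of the endothelial surface, fell by 1.41 (SE 0.22). The other 6, named after their values were seen, were S1pr1 (1.33), Gpihbp1, which anchors lipoprotein lipase in capillaries (1.27), and Lmo2, a partner of Tal1 (0.94), which rose, and Sox7 (-1.11), Cd34 (-0.89) and Sox13 (-0.56), which fell. The call of Nostrin was lost without control replicate 1, that of Cd34 in 4 and that of Sox13 in 3 of the 6 fits that left out 1 array (for Cd34 control replicate 1 or 3 or mutant replicate 2 or 3, with adjusted p of up to 0.0903, for Sox13 control replicate 1 or 2 or mutant replicate 2, with adjusted p of up to 0.0782).

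Of 27 other genes of vascular growth and guidance, 5 were higher, 2 lower and 20 not called, with a median change of 0.06. Over all genes 5.61% were called higher and 6.37% lower. Thbs1, a matrix protein that restrains angiogenesis, rose by 2.48 (SE 0.22), Esm1, a proteoglycan of endothelial tip cells, by 1.42 (SE 0.25), Apela, the second ligand of Aplnr, by 1.24 (SE 0.13), and Unc5b, a netrin receptor of vessels, by 0.89 (SE 0.10). Apela and Esm1 stayed below an intensity of 16 in their group means. The call of Esm1 was lost without mutant replicate 2 (adjusted p = 0.0526). The other 3 calls, picked out with their values known, were the Notch target Hey1 (0.61), higher, and the receptor Notch1 (-0.49) and the arterial ligand Efnb2 (-0.56), lower. Of the 6 fits that left out 1 array, 5 lost the call of Hey1, 3 that of Notch1 and 5 that of Efnb2 (adjusted p of up to 0.124).

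Cells that lie beside or inside vessels give the setting of these values. The counts of calls that follow stand beside 5.61% of all genes called higher and 6.37% called lower. Of 12 pericyte and mural markers none was higher and 2 were lower (median change -0.15). These were Anpep, aminopeptidase N (-0.86, adjusted p = 0.0159), lost without any 1 control replicate, and Vtn, vitronectin (-1.01, adjusted p = 0.0424), lost in 5 of the 6 fits that left out 1 array. Of the markers not called, 3 with an unadjusted p under 0.05 had changes above 0 and 1 below it, all named after their values were seen. These were Higd1b (0.60, adjusted p = 0.078, groups overlapping), Rgs5, a regulator of G protein signaling in pericytes (0.29, adjusted p = 0.101), Ndufa4l2 (0.23, adjusted p = 0.161) and Kcnj8, a potassium channel subunit of mural cells (-0.51, adjusted p = 0.0664). The summed intensity of these 12 was 2661 to 3075 in the controls and 2696 to 2820 in the mutants. Among 7 platelet and megakaryocyte markers, which share Selp, Vwf and Mmrn1 with endothelium, Itgb3 (-1.07, adjusted p = 0.000984) and Itga2b (-0.52, adjusted p = 0.041, lost in 5 of 6 such fits) fell. The other 5 were not called, and 4 of them lay below an intensity of 16 on all arrays. Of those 5, Pf4, platelet factor 4, named after its values were seen, had log2 intensities of 6.39 to 6.73 in the controls and 6.84 to 7.06 in the mutants, all above the controls, with a change of 0.40 (adjusted p = 0.0654). The summed intensity of the 7 was 206 to 227 in the controls and 192 to 224 in the mutants. Only 3 of 6 red cell markers were measured, and they lay below an intensity of 16 on all arrays, with the smallest p for Slc4a1 (0.27) and Hba-a1 (0.17), neither called.

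Of 11 leukocyte markers none was called by limma, and 4 lay below an intensity of 16 on all arrays. The 2 with an unadjusted p under 0.05 were Laptm5, with a change of -0.36, and Cd3g, with one of -0.59. The summed intensity of the 11 was 597 to 691 in the controls and 504 to 600 in the mutants. Of 11 macrophage markers 5 were higher and none lower, against 5.61% and 6.37% of all genes (summed intensity 1497 to 1545 in the controls and 1802 to 1940 in the mutants). The largest changes were those of the complement genes C1qb (0.56), C1qa (0.50) and C1qc (0.45) and of the Fc receptor Fcgr1 (0.49). The fifth, named after its values were seen, was the lysozyme gene Lyz2 (0.39). In the 6 fits that left out 1 array, the call was lost in 5 for Fcgr1 and in 3 for C1qc, and in 1, that without control replicate 1, for each of C1qa, C1qb and Lyz2 (the highest adjusted p, 0.131, was that of Fcgr1). Of 8 adipocyte markers 2 were higher, Retn, resistin (2.35, adjusted p = 0.0409, lost in 4 of 6 fits that left out 1 array), and Cidec, a lipid droplet protein (1.82, adjusted p = 0.00907). All 8 had changes above 0 (median 1.45), and for 7 all mutant arrays lay above all controls, against 14.9% of all genes. Adipoq (2.48, adjusted p = 0.0738) and Fabp4 (2.20, adjusted p = 0.102), named after their values were seen, were not called. The summed intensity of the 8 was 1845, 2269 and 554 in control replicates 1 to 3 and 3545 to 5629 in the mutants. Adipose tissue has its own capillaries, which express Gpihbp1. Of 7 mesothelial markers, which share Pdpn, none was called by limma, and 3 lay below an intensity of 16 on all arrays, Bnc1 among them. The 2 with an unadjusted p under 0.05 were Wt1 (-0.30) and Bnc1 (-0.54). The summed intensity of the 7 was 275 to 364 in the controls and 259 to 291 in the mutants. Of 10 stroma markers only Hand2, a progesterone-induced factor, was called (1.49), and the median change was -0.10. For 4 of the 10 all mutant arrays lay below all controls, as for 17.4% of all genes. These 4, named after their values were seen, were Vim (-0.35), Pdgfra (-0.33), Lum (-0.31) and Dcn (-0.19). Of 8 smooth muscle markers none was called by limma, with the smallest p for Synpo2 (-0.49, the 1 with an unadjusted p under 0.05) and Acta2 (0.16). Of 10 epithelial markers Foxa2 rose (1.54) and Elf3 (-0.85, adjusted p = 0.0302, lost in 4 of 6 such fits) and Krt18 (-0.80) fell. The median change was -0.35, and 2 of the 10 had changes above 0. Krt8 (-0.48, adjusted p = 0.117) and Cdh1 (-0.28, adjusted p = 0.122), named after their values were seen, had an unadjusted p under 0.05. The summed intensity of the 10 was 4835 to 5751 in the controls and 3560 to 5008 in the mutants. The part of these cells in the changes of the endothelial genes was not tested.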

How the data were processed

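RNA of 6 uteri samples was read on Affymetrix arrays by the authors, who deposited 1 linear intensity per probe set and array. The submitters' processing notes name RMA, with its version and any filter not given in the sources used here. Groups and replicate numbers came from the sample labels. The deposited intensities, none of them under 1, were put on the log2 scale. Of 45037 probe sets, 34945 carried 1 symbol in GEO's platform annotation (932 several, 9160 none), giving 18193 genes, and a gene was represented by the probe set brightest on average over the 6 arrays. The comparison of mutant with control used moderated linear models (limma 3.58.1, R 4.3.3) without covariates, and p-values were adjusted by Benjamini-Hochberg across genes and called under 0.05. Probe sets of 1 gene were compared in a fit over all 34945 probe sets. The steps were tested on simulated data. The endothelial members, the other gene lists and the alternatives were chosen with earlier results of these data known. All 38 members are named, and of each other list up to 4 called genes of largest change, or 2 genes of smallest p if there was no call. Any other gene is said to have been named after its values were seen. Of the other lists, genes without a matching symbol were left out. Alternatives changed the scaling, the probe set per gene, the filter on low values, the floor, the variance model, the test, the replicate block and the arrays used.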

Additional observations from a re-analysis of the deposited data

How the results depend on the processing

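Over 19 alternative settings, 631 of the values for single members kept their direction and side of the threshold, 36 lost and 28 gained a call, and 25 changed sign. In the reported fit 1 member was called higher and 4 lower, beside 1021 and 1159 over all genes. With a floor of 16 these counts were 0 and 0 (285 and 247 over all genes, as the floor gives many genes the same value on all arrays). Student's t-test gave 0 and 0 after Benjamini-Hochberg adjustment (105 and 39 over all genes), and 4 and 5 at an unadjusted p under 0.05 (1925 and 2226 over all genes). Array weights gave 4 and 7 (1278 and 1574), and probe sets averaged per gene gave 2 and 4 (954 and 993). Leaving out the lowest 40% of genes gave 2 and 5 (931 and 1176), and centring arrays on their medians gave 0 and 4 (951 and 1195). On leaving out 1 array, members higher ranged from 0 to 2, members lower from 0 to 7, the median change from -0.13 to 0.0585, genes higher from 479 to 972 and genes lower from 371 to 1137. Without control replicate 2 and mutant replicate 1, 2 members were higher and 4 lower (754 and 771 genes). The cause of these shifts was not tested.

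With the replicate number as a block, 3 members were higher (Prox1 and Vcam1 joined Flt1) and 5 lower (Angpt2 and Icam1 joined), with 962 and 1087 over all genes, and Selp lost its call (adjusted p = 0.0698 from limma). The deviations of same-numbered arrays correlated at 0.01, 0.21 and 0.16 across genes, which are not independent, and as 1 pair was under 0.1, the numbers were not taken to pair the samples.

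The 8 members that changed sign in any setting, none of them called in the reported fit, had reported changes of -0.20 (Mmrn1) to 0.16 (Reln). Erg was -0.00503 with arrays centred on their medians, -0.00900 with probe sets averaged per gene, -0.11 with array weights and -0.02 without control replicate 2 and mutant replicate 1. Flt4 was -0.00411 with centring, -0.00137 with quantile normalization and -0.0303 with averaged probe sets. Vegfc was 0.10 with averaged probe sets, 0.0275 with array weights and 0.22 without those 2 arrays, where Mmrn1 was 0.0949. On leaving out 1 array the changes ranged from -0.12 to 0.11 for Erg, -0.17 to 0.17 for Vegfc, -0.0536 to 0.12 for Flt4, -0.0499 to 0.36 for Reln, -0.18 to 0.0519 for Icam2, -0.13 to 0.0650 for Tie1, -0.23 to 0.0324 for Gja4 and -0.38 to -0.00659 for Mmrn1.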
